A study of Mus musculus with 12 samples.

Results

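The 10 genes described here mark the endothelium, the cell layer that lines the blood vessels, in mouse kidney. They were taken by gene symbol from the table of read counts, as Pecam1, Kdr, Flt1, Cdh5, Tek, Emcn, Ehd3, Plvap, Eng and Nos3, which are 10 of the 28991 gene identifiers counted. RNA sequencing was done on whole kidney of male BALB/c mice, an inbred strain, aged 8 weeks, with 4 groups of 3 mice. The combination group received 250 mg/kg dichloroacetate (DCA), an inhibitor of pyruvate dehydrogenase kinase, by daily intraperitoneal injection for 5 days, then 1 injection of 20 mg/kg cisplatin together with DCA, and was killed 24 hours later. The cisplatin group received saline for 5 days, then the same dose of cisplatin, and was also killed 24 hours later. The DCA group received 250 mg/kg DCA for 6 days, and the saline group received saline for 6 days. Cisplatin is a platinum drug against cancer that injures kidney tubules. The comparisons ask how the endothelial genes stood 24 hours after cisplatin, and whether DCA changed that.

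Kidney endothelium is not uniform. Glomerular capillaries filter the blood, peritubular capillaries run along the tubules, and vasa recta supply the medulla. Vascular endothelial growth factor A (VEGF-A), made by podocytes and tubule cells, keeps these capillaries open through the receptor encoded by Kdr, while the receptor encoded by Flt1 binds the same ligand tightly and limits what reaches Kdr. The receptor encoded by Tek answers to angiopoietins, and endoglin, encoded by Eng, is a co-receptor for bone morphogenetic proteins (BMPs). Pecam1 and Cdh5 encode adhesion proteins of the junctions between endothelial cells. Emcn encodes a sialomucin of the cell surface, Ehd3 an ATPase of membrane traffic that marks glomerular endothelium in mouse kidney, Plvap the protein of the diaphragms that span fenestrae, and Nos3 the endothelial nitric oxide synthase.

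Library totals ran from 29505929 to 62237514 counts, and every gene of the 10 had between 191 and 4427 counts in each library. All 10 passed the filter on low counts, as did 20370 genes in all. Levels are given in CPM (counts scaled to a common library size) on library totals adjusted by the trimmed mean of M values (TMM), which sets the typical gene level between groups. Scaling by plain library totals instead moved the median log2 change of all genes to 0.26 in the cisplatin group against saline, and to 0.16 in the combination group against saline. Changes given below are therefore relative to the typical gene. Saline replicate 1 had the highest level in its group for 10 of the 10 genes, and it was highest for 36.6% of all genes tested. Combination replicate 3 was the lowest in its group for 10 of 10, against 37.0% of all genes, and DCA replicate 3 was the lowest for 10 of 10, against 35.6%. Saline replicate 3 was the lowest for 8 of 10, against 38.3%. For 32 other pan-endothelial genes, saline replicate 1 was the highest in 26 genes. The lowest was combination replicate 3 in 26 genes, DCA replicate 3 in 25 genes and saline replicate 3 in 17 genes. The summed level of the 10 genes ran from 239 to 311 CPM in the combination group, from 292 to 304 CPM in the cisplatin group, from 292 to 366 CPM in the DCA group and from 332 to 438 CPM in the saline group. In whole kidney, fewer endothelial cells and less RNA per endothelial cell cannot be told apart.

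The promoters of 6 of the 10 genes (Kdr, Flt1, Tek, Emcn, Ehd3 and Eng) were found in the RefSeq table for build GRCm38, the same assembly as mm10. Those of Kdr, Flt1, Emcn and Tek are shown as the 250 bases before the RefSeq start of each gene, because the first 3 fell after cisplatin and Tek passed no test. They are reference (C57BL/6J) sequence, written 5′ to 3′ on the strand of the gene. Capitals mark GGAA or its reverse complement TTCC, the core that ETS factors bind, a family that includes the endothelial regulators Erg and Fli1.
Kdr, chr5:75978456-75978705, minus strand: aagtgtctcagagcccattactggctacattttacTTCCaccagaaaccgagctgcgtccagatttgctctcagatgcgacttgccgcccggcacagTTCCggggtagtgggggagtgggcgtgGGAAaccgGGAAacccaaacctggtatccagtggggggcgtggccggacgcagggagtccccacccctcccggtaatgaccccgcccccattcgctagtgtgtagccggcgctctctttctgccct
Flt1, chr5:147726012-147726261, minus strand: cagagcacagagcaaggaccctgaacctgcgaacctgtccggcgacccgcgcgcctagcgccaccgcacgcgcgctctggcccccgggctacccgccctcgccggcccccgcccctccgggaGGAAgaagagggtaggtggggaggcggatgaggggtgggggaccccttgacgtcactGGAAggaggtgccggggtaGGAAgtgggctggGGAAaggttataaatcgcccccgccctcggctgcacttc
Emcn, chr3:137340828-137341077, plus strand: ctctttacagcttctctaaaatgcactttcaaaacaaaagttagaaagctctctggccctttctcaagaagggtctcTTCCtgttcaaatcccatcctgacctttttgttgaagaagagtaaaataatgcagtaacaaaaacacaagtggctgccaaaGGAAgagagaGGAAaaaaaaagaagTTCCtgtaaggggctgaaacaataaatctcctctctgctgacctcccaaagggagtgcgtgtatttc
Tek, chr4:94739039-94739288, plus strand: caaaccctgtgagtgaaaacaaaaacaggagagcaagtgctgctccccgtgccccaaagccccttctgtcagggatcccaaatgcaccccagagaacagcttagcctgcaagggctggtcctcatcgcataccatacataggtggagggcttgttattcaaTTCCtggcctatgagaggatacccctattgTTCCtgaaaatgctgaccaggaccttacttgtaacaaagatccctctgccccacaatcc
The core was found 4 times in the Kdr window, 4 times in that of Flt1, 4 times in that of Emcn and 2 times in that of Tek. Ehd3 and Eng each held 3. Of 32851 promoter windows of the same length, 93.4% held at least 1 core and the median window held 3, so the count does not set these genes apart. The GC box GGGCGG, on either strand, was present 2 times in the Kdr window and 3 times in the Flt1 window, was in none of the other 4, and was in 32.7% of all windows. TATAAA was present 1 time, in the Flt1 window, and in 12.4% of all windows.

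Levels between genes were compared per kilobase of exon, as the mean of 3 saline mice with its SD. Plvap was the highest at 40.3 ± 7.81 CPM per kb, and Eng followed at 15.2 ± 2.13 CPM per kb. Emcn (7.38 ± 1.50), Tek (6.17 ± 1.17), Pecam1 (5.55 ± 0.848), Cdh5 (5.12 ± 0.769), Kdr (4.45 ± 0.797) and Ehd3 (3.82 ± 0.348 CPM per kb) came next, and each differed from its neighbour in this order by less than the larger SD of the pair. Flt1 had 2.28 ± 0.309 and Nos3 had 1.67 ± 0.195 CPM per kb. After cisplatin the order near the bottom changed: Kdr, at 2.50 ± 0.180 CPM per kb in cisplatin mice, stood under Ehd3 at 2.93 ± 0.110 CPM per kb. Exon length was the union of all annotated exons of a gene, which makes a gene with long unused exons look low.

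At 24 hours after cisplatin, 5 of the 10 genes were lower than in saline mice and none was higher (edgeR quasi-likelihood test, Benjamini-Hochberg adjusted p below 0.05 over all genes tested). The change was -43.9% for Kdr, -29.4% for Emcn, -23.4% for Ehd3, -22.8% for Pecam1 and -18.8% for Flt1. Of all genes tested, 30.4% were called lower and 29.7% higher in the same comparison, so most of the transcriptome moved and the share of these 10 that fell was 5 of 10 against 30.4%. The median log2 change of the 10 genes was -0.28, against -0.01 over all genes tested. In 6 of the 10 genes the levels of the cisplatin mice were all lower than those of the saline mice, without overlap, as in 32.7% of all genes. Under plain library totals, 1 of the 10 stayed lower (Kdr), Nos3 was called higher at a log2 change of 0.36, and Cdh5, Tek, Plvap and Eng changed sign without passing the test. On that scale 9749 genes in all were called higher and 3596 lower, against 6048 and 6196 with TMM. Counts given under plain totals for the gene lists below carry the same shift towards rises. Without saline replicate 1 and combination replicate 3, the count of 5 lower genes in cisplatin mice was the same.

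**Figure D1:**
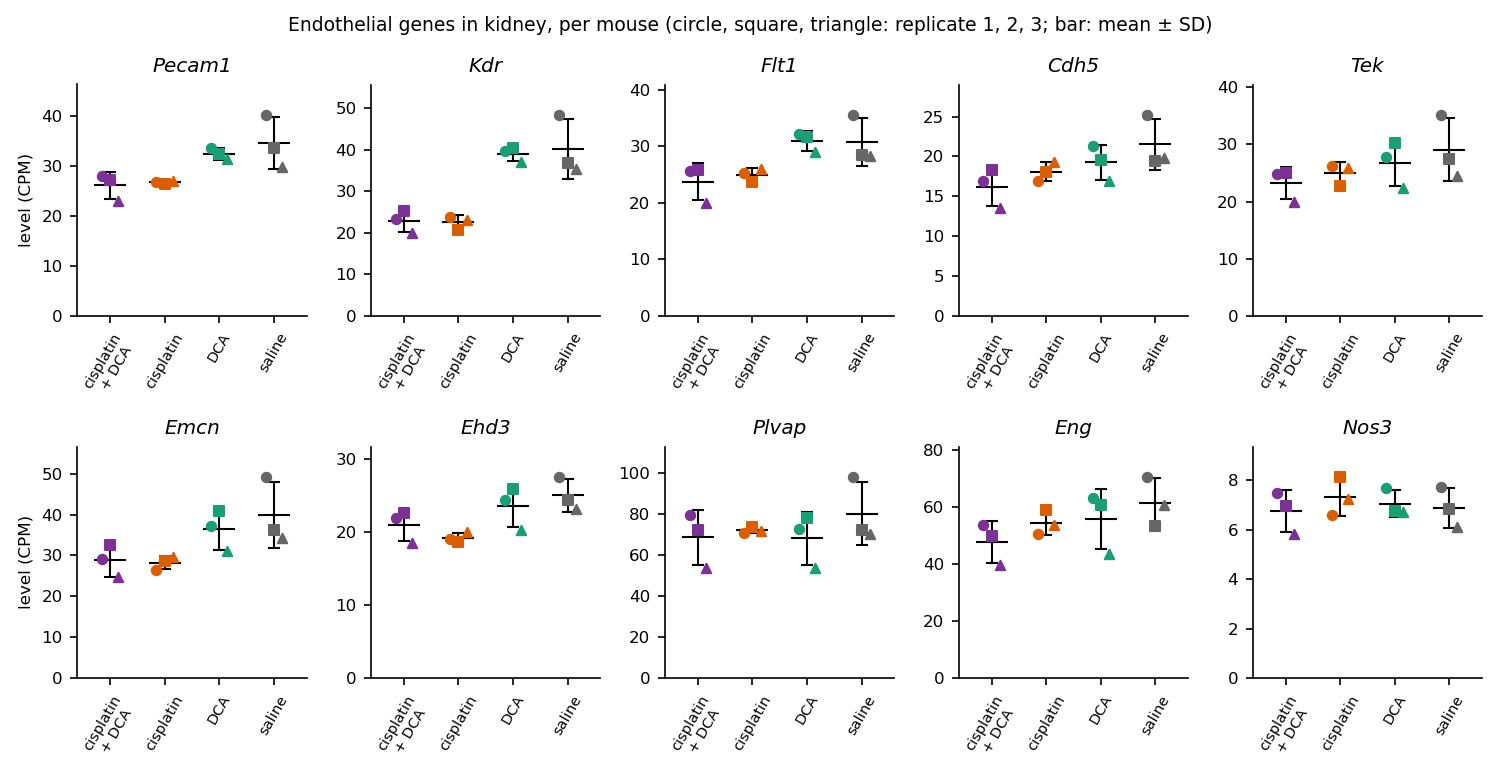
Level of each of the 10 genes in every mouse, in CPM on TMM-adjusted library totals, with the groups along the horizontal axis. Circles, squares and triangles are replicates 1, 2 and 3, and bars give the mean ± SD of 3 mice. Kdr sat between 20.0 and 25.2 CPM in the 6 mice given cisplatin, with or without DCA, and between 35.3 and 48.5 CPM in the other 6, and under plain totals it was still lower in cisplatin mice than in saline mice.

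Kdr (ENSMUSG00000062960), the main signalling receptor for VEGF-A, lies on chromosome 5 from 75932827 to 75978458, minus strand, in GRCm38. Its levels were 23.3, 25.2 and 20.0 CPM in combination mice and 23.9, 20.8 and 23.0 CPM in cisplatin mice, against 39.6, 40.4 and 37.0 CPM in DCA mice and 48.5, 36.9 and 35.3 CPM in saline mice. The 6 mice given cisplatin were all lower than the 6 mice not given it, and saline replicate 1 was the highest of the 12. The log2 change was -0.83 (SE 0.112, 95% CI -1.07 to -0.59, adjusted p = 2.224e-05) in cisplatin over saline mice. It was the only gene of the 10 whose fall was called under every alternative tried, plain totals included, where its log2 change was -0.56.

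Flt1 (ENSMUSG00000029648, chromosome 5, 147561604 to 147726011, minus strand) encodes the other VEGF-A receptor of these vessels, which also binds placental growth factor. Its levels were 25.6, 25.8 and 19.9 CPM in combination mice and 25.3, 23.8 and 26.0 CPM in cisplatin mice, against 32.2, 31.7 and 29.0 CPM in DCA mice and 35.6, 28.4 and 28.4 CPM in saline mice. Cisplatin and saline mice did not overlap, but 26.0 CPM in the highest cisplatin mouse was close to 28.4 CPM in the lowest saline mouse. The log2 change in cisplatin over saline mice was -0.30 (SE 0.104, adjusted p = 0.02279), and the call was lost without saline replicate 1, at -0.18, and also without cisplatin replicate 1 or 2 and under plain totals, at -0.03.

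Tek (ENSMUSG00000006386, chromosome 4, 94739289 to 94874976, plus strand) encodes the angiopoietin receptor. Its levels were 24.8, 25.0 and 20.0 CPM in combination mice and 26.3, 22.7 and 25.8 CPM in cisplatin mice, against 27.8, 30.2 and 22.3 CPM in DCA mice and 35.2, 27.5 and 24.6 CPM in saline mice. The cisplatin and saline groups overlapped. The log2 change was -0.22 (95% CI -0.52 to 0.07, adjusted p = 0.1719), which passed no test.

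Among the junction genes, Pecam1 (ENSMUSG00000020717, chromosome 11, 106654217 to 106750628, minus strand) had 28.0, 27.3 and 23.1 CPM in combination mice and 26.8, 26.4 and 27.0 CPM in cisplatin mice, against 33.7, 32.4 and 31.3 CPM in DCA mice and 40.3, 33.6 and 29.8 CPM in saline mice. Cisplatin mice lay within a narrow band below all saline mice, at a log2 change of -0.37 (SE 0.0944, adjusted p = 0.003789), and at -0.10 without a call under plain totals. Pecam1 is also made by leukocytes and platelets. The summed level of 13 leukocyte and platelet markers, none of them at 0 in all libraries, ran from 58.0 to 62.9 CPM in cisplatin mice and from 90.0 to 105 CPM in saline mice. Directions were mixed: of the 9 tested, 3 were lower and 2 were higher, beside 30.4% and 29.7% of all genes, with a median log2 change of -0.015. The part of these markers in the change of Pecam1 was not tested. Cdh5 (ENSMUSG00000031871, chromosome 8, 104101625 to 104144511, plus strand), which encodes VE-cadherin and marks endothelium more strictly, had 16.9, 18.3 and 13.5 CPM in combination mice and 16.9, 18.1 and 19.2 CPM in cisplatin mice, against 21.3, 19.6 and 17.0 CPM in DCA mice and 25.2, 19.5 and 19.9 CPM in saline mice. The highest cisplatin mouse and the lowest saline mouse were nearly equal for Cdh5, and the log2 change of -0.25 (95% CI -0.52 to 0.02, adjusted p = 0.09508) passed no test.

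Emcn (ENSMUSG00000054690, chromosome 3, 137341067 to 137432185, plus strand) had 29.2, 32.7 and 24.6 CPM in combination mice and 26.4, 28.6 and 29.6 CPM in cisplatin mice, against 37.3, 40.9 and 31.0 CPM in DCA mice and 49.2, 36.3 and 34.2 CPM in saline mice. All cisplatin mice were lower than all saline mice, and the log2 change was -0.50 (SE 0.137, adjusted p = 0.006157). Under plain totals it was -0.23 and passed no test. Ehd3 (ENSMUSG00000024065, chromosome 17, 73804134 to 73832094, plus strand) had 21.9, 22.6 and 18.5 CPM in combination mice and 19.0, 18.6 and 20.0 CPM in cisplatin mice, against 24.4, 25.9 and 20.3 CPM in DCA mice and 27.6, 24.5 and 23.1 CPM in saline mice. All cisplatin mice were again below all saline mice, at a log2 change of -0.38 (SE 0.0982, adjusted p = 0.00404), with -0.11 and no call under plain totals.

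Plvap (ENSMUSG00000034845, chromosome 8, 71497765 to 71511752, minus strand) had 79.7, 72.3 and 53.6 CPM in combination mice and 70.6, 73.4 and 71.9 CPM in cisplatin mice, against 72.9, 78.0 and 53.5 CPM in DCA mice and 98.0, 72.2 and 70.3 CPM in saline mice. The cisplatin mice fell inside the saline range, with saline replicate 1 far above the other two. Eng (ENSMUSG00000026814, chromosome 2, 32646595 to 32682669, plus strand) had 53.9, 49.7 and 39.7 CPM in combination mice and 50.5, 59.1 and 53.7 CPM in cisplatin mice, against 63.1, 60.6 and 43.7 CPM in DCA mice and 70.6, 53.4 and 60.6 CPM in saline mice. Neither passed the test after cisplatin, with log2 changes of -0.16 (95% CI -0.50 to 0.19) for Plvap and -0.18 (95% CI -0.48 to 0.13) for Eng.

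Nos3 (ENSMUSG00000028978, chromosome 5, 24364810 to 24384474, plus strand) was the lowest gene of the 10, with 7.48, 6.98 and 5.82 CPM in combination mice and 6.62, 8.14 and 7.25 CPM in cisplatin mice, against 7.69, 6.77 and 6.74 CPM in DCA mice and 7.73, 6.83 and 6.12 CPM in saline mice. All 4 groups overlapped, and the log2 change in cisplatin over saline mice was 0.09 (95% CI -0.17 to 0.34, adjusted p = 0.5534). Of the exon bases of Nos3, 25.2% overlap exons of the antisense gene Gm15587 and 7.12% overlap those of Atg9b. No source used here says whether counting used strand, so reads of Nos3 and of these genes cannot be told apart.

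**Figure D2:**
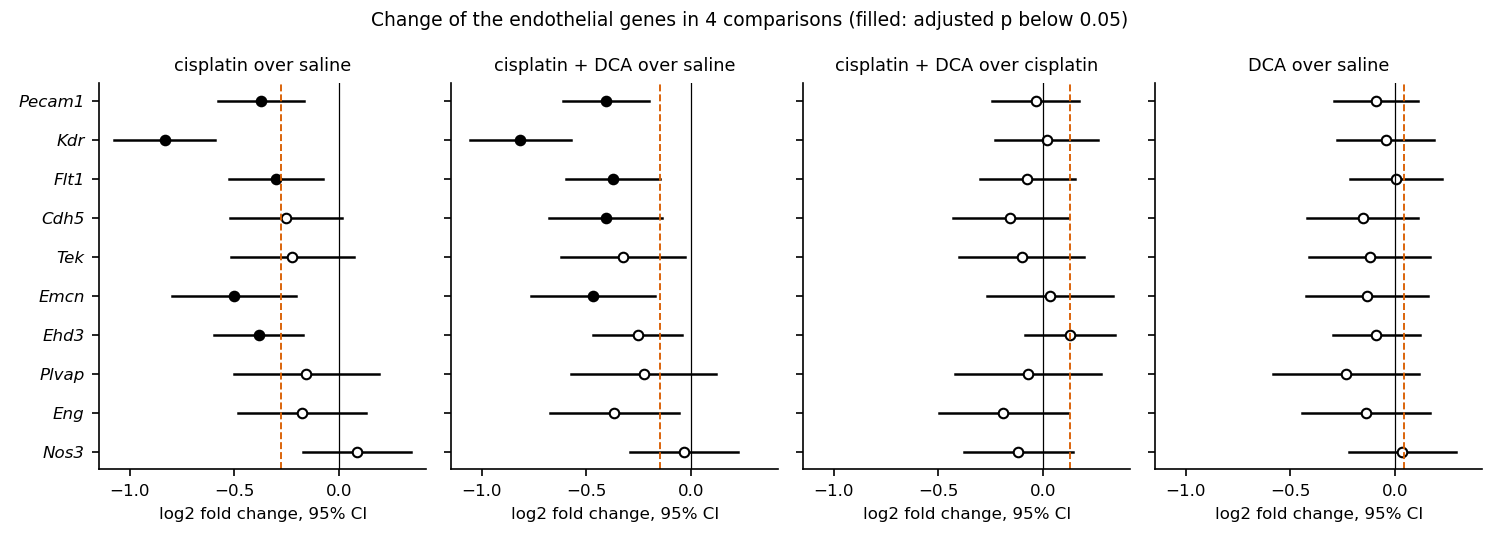
Log2 fold change of the 10 genes in 4 comparisons, with 95% confidence intervals from the edgeR fit, and filled points where the adjusted p was below 0.05. The solid line marks no change under TMM scaling, and the dashed line marks where no change would lie if libraries were scaled by plain totals. Kdr is the farthest to the left after cisplatin with or without DCA (-0.82 and -0.83), and no gene is filled in the comparison of combination with cisplatin mice or of DCA with saline mice. Under plain totals Cdh5, Tek, Plvap and Eng change sign in cisplatin over saline mice.

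To set each gene against other endothelial genes, all 20370 genes were fitted again, in a fit added after the first results were seen. The libraries were scaled to the geometric mean of the 32 other pan-endothelial genes. Podxl, among these 32, is also among the podocyte markers used below. On that scale Kdr was lower in cisplatin mice than in saline mice by a log2 change of -0.64 (SE 0.121, 95% CI -0.89 to -0.40, adjusted p = 7.677e-05), when 17.6% of all genes were called lower. Emcn was the other gene of the 10 called lower, at -0.31 (adjusted p = 0.02828), and this call was lost without saline replicate 1 or 2 and without each cisplatin replicate. The remaining 8 passed no test, Nos3 having the highest value at 0.27 (95% CI -0.01 to 0.54, adjusted p = 0.1008). Kdr was also lower in combination mice than in DCA mice on this scale, at -0.59 (adjusted p = 0.0004624), against a background of 8.37% called lower, and in combination mice against saline mice at -0.54 (adjusted p = 0.001077), against 7.43%. Leaving out any 1 library, the value of Kdr in cisplatin over saline mice stayed between -0.73 and -0.58, with adjusted p-values of 0.0001491 to 0.002125, and without saline replicate 1 and combination replicate 3 together it was -0.58.

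For Kdr the same was seen within each library, as a description without a test. The measure was the log2 ratio of a gene to the geometric mean of the other 9. For Kdr this ratio ran from -0.31 to -0.05 in the 6 mice given cisplatin and from 0.37 to 0.58 in the 6 others. For Nos3 it ran from -2.12 to -1.81 in the mice given cisplatin and from -2.50 to -2.15 in the others. The levels of Nos3 itself overlapped in all 4 groups, and the other 9 genes include those that fell. For the other 8 the ranges of these 2 sets of mice overlapped. Over all genes set against the geometric mean of the 10, 32.3% did not overlap.

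**Figure D3:**
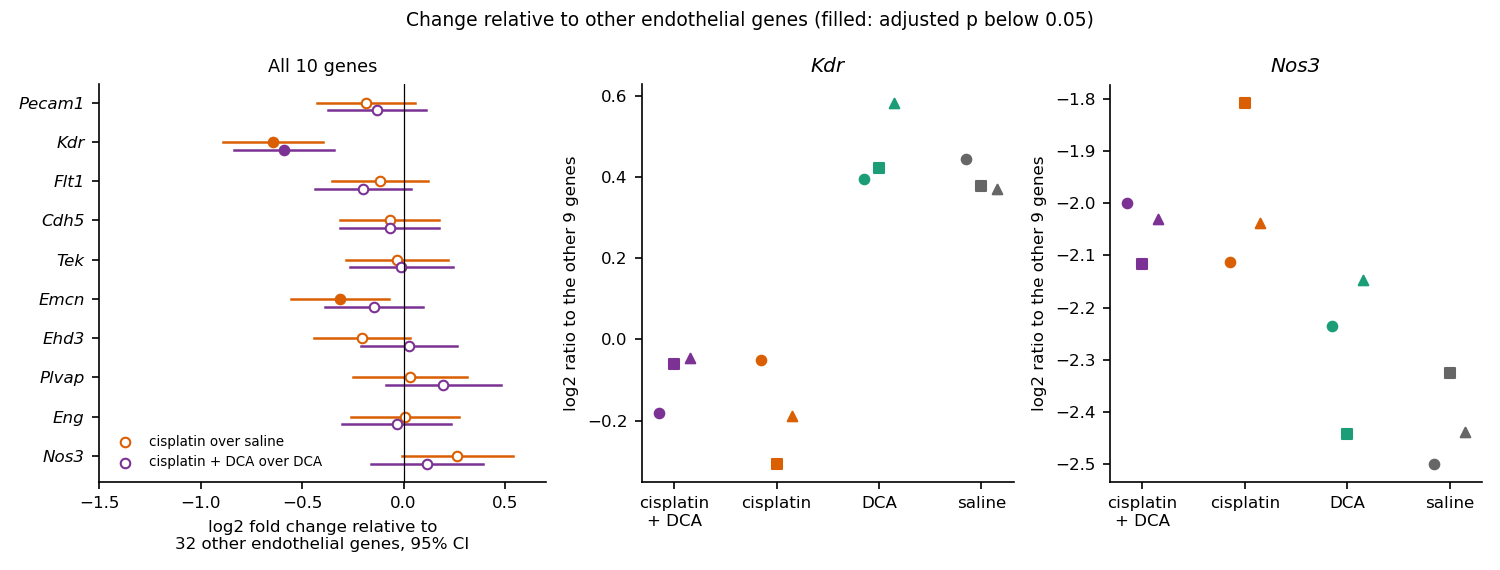
Left, log2 fold change of the 10 genes with libraries scaled to 32 other pan-endothelial genes, with 95% confidence intervals, filled where the adjusted p was below 0.05. Right, for Kdr and Nos3, the log2 ratio in each mouse to the geometric mean of the other 9 genes, with replicates 1, 2 and 3 as circles, squares and triangles. Kdr lies at -0.64 in cisplatin over saline mice and at -0.59 in combination over DCA mice, and its ratio ran from -0.31 to -0.05 in the 6 mice given cisplatin and from 0.37 to 0.58 in the other 6.

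No endothelial gene of the 10 differed detectably between combination and cisplatin mice. In combination mice against cisplatin mice, 0 of the 10 passed the test, 0 had an unadjusted p below 0.05, and 0 passed DESeq2's Wald test, in a comparison where 31.6% of all genes were called. The median log2 change of the 10 was -0.07, against 0.01 over all genes. Kdr differed by 0.02 (95% CI -0.23 to 0.26), whose upper bound is a rise of 20.1%, beside a log2 change of -0.83 in cisplatin over saline mice. Ehd3 had the highest value, 0.13 (95% CI -0.09 to 0.34), and Eng the lowest, -0.19 (95% CI -0.50 to 0.12). The intervals of all 10 together spanned -0.50 to 0.34, which does not show that the groups were alike. The effect of cisplatin did not differ detectably with DCA in the test of the difference itself, which called 0 of the 10 (0 at an unadjusted p below 0.05) and 18.6% of all genes. For Kdr that difference was 0.06 (95% CI -0.28 to 0.40), and the largest was 0.22 (95% CI -0.08 to 0.52), for Ehd3.

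Against saline mice, combination mice had 5 of the 10 genes lower and none higher, with 19.6% of all genes called lower and 20.6% higher. Kdr was lower by a log2 change of -0.82 (adjusted p = 7.227e-05), Emcn by -0.47 (adjusted p = 0.01503), Cdh5 by -0.41 (adjusted p = 0.01929), Pecam1 by -0.41 (adjusted p = 0.003958) and Flt1 by -0.37 (adjusted p = 0.01158). The levels did not overlap for these 5 and for Ehd3, as in 23.6% of all genes. The calls for Cdh5, Emcn and Flt1 rested on the libraries at the edges: without saline replicate 1, and also without saline replicate 1 and combination replicate 3 together, only Pecam1 and Kdr were called. The replicate block and DESeq2 each called 8, and plain totals called 1, Kdr. The comparisons with saline share the same 3 saline mice.

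Against DCA mice, which received no cisplatin, combination mice had 3 of the 10 lower and none higher, with 19.2% of all genes called lower and 21.5% higher. Kdr had a log2 change of -0.77 (SE 0.112, adjusted p = 0.0001078), Flt1 of -0.38 (adjusted p = 0.01004) and Pecam1 of -0.32 (adjusted p = 0.01712). For these 3 genes the levels of combination mice were all below those of DCA mice, as in 24.3% of all genes. Emcn, at -0.34, had an adjusted p of 0.06731. The call of Pecam1 was lost without DCA replicate 1 (-0.29) or combination replicate 3 (-0.24), and under plain totals only Kdr was called. Without DCA replicate 3, the lowest DCA library for every one of the 10, 6 genes were called: Emcn, Ehd3 and Eng were added. This comparison shares no library with that of cisplatin over saline mice, and Kdr had the lowest value of the 10 in both.

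DCA alone moved none of the 10 in a detectable way. Against saline mice, DCA mice had 0 called by edgeR, 0 with an unadjusted p below 0.05 and 0 called by DESeq2, with 0.309% of all genes called. Plvap had the lowest log2 change, -0.23 (95% CI -0.58 to 0.11), and Nos3 the highest, 0.04 (95% CI -0.22 to 0.29). For Kdr the change was -0.04 (95% CI -0.28 to 0.19). In 8 of the 10 genes the value was below 0, and saline replicate 1 was the highest saline library for each of them.

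The main ligands of Kdr and Tek also fell after cisplatin. Vegfa, which encodes VEGF-A, had 134 ± 5.28 CPM in combination mice and 112 ± 3.90 CPM in cisplatin mice, against 224 ± 8.88 CPM in DCA mice and 249 ± 11.4 CPM in saline mice (mean ± SD, n = 3 mice each). Its log2 change was -1.16 in cisplatin over saline mice (SE 0.0553, adjusted p = 1.311e-09) and 0.27 in combination over cisplatin mice (SE 0.0549, adjusted p = 0.002383), where Kdr had 0.02. Pgf, which encodes the Flt1 ligand placental growth factor, was higher by 0.79 in cisplatin mice (adjusted p = 0.02089), at a level of 1.01 ± 0.139 CPM in cisplatin mice and 0.581 ± 0.142 CPM in saline mice, and its call was lost without saline replicate 1 and without cisplatin replicate 1 or 2. Of the 8 genes listed as further VEGF ligands, receptors and co-receptors, 4 were lower and 1 was higher after cisplatin, beside 30.4% and 29.7% of all genes. Without saline replicate 1 and combination replicate 3 the counts for this list were 2 and 0, with 2 and 1 under plain totals. The co-receptors Nrp1 (-0.23, adjusted p = 0.0429) and Nrp2 (-0.39, adjusted p = 0.04693) were near the threshold and each lost the call without saline replicate 1. Flt4, the lymphatic VEGF receptor, had -0.18 and passed no test. Under plain totals Nrp1 and Flt4 changed sign, without a call.

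On the angiopoietin side, Angpt1, the agonist of Tek, had 5.29 ± 0.0776 CPM in combination mice and 4.27 ± 0.155 CPM in cisplatin mice, against 10.6 ± 1.01 CPM in DCA mice and 10.8 ± 0.819 CPM in saline mice. It fell by 1.33 on the log2 scale in cisplatin mice (SE 0.0919, adjusted p = 3.87e-08), and was higher by 0.31 in combination over cisplatin mice (adjusted p = 0.02695), a call that 8 of 15 alternatives lost. Angpt2, the partial antagonist of Tek, had -0.80 in cisplatin mice (adjusted p = 0.04306), and lost the call without saline replicate 1 or 2 and without each cisplatin replicate. The receptor partners of Tek passed no test, with -0.17 for Tie1 and -0.17 for Ptprb, the phosphatase that acts on Tek, and both changed sign under plain totals. In all, 3 of the 6 genes of this axis were lower after cisplatin and none was higher, beside 30.4% and 29.7% of all genes. Of the 6, 1 was lower without saline replicate 1 and combination replicate 3 and also under plain totals.

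For the pathway of endoglin the calls were all rises. Of 11 tested genes of the BMP axis, 5 were higher after cisplatin and none was lower, beside 29.7% and 30.4% of all genes. The counts for this axis were the same without saline replicate 1 and combination replicate 3, while plain totals gave 8 higher and none lower. Over all genes, plain totals called 9749 higher and 3596 lower, against 6048 and 6196 with TMM. Id1, a target of BMP receptors that many cells express, had 48.6 ± 5.88 CPM in combination mice and 67.3 ± 8.35 CPM in cisplatin mice, against 19.6 ± 3.73 CPM in DCA mice and 21.2 ± 4.60 CPM in saline mice. Its log2 change was 1.67 in cisplatin over saline mice (adjusted p = 8.162e-07) and -0.47 in combination over cisplatin mice (adjusted p = 0.03, a call lost in 4 of 15 alternatives, each without 1 library). The endothelial receptor Acvrl1 (-0.19) and its partner Bmpr2 (0.20) passed no test, and neither did Eng. Under plain totals Bmpr2 was called higher, at 0.47, and without saline replicate 1 it had 0.35 with no call.

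Around Nos3, 16 genes of the nitric oxide and endothelin axis gave 4 higher and 7 lower calls after cisplatin, beside 29.7% and 30.4% of all genes. Under plain totals they gave 8 higher and 4 lower. On that scale 9749 genes in all were called higher and 3596 lower, against 6048 and 6196 with TMM. Cav1, whose product binds and holds the enzyme in check, had a log2 change of -0.12 (adjusted p = 0.1466). Without saline replicate 1 it was called lower, at -0.19 (adjusted p = 0.02666), and under plain totals it was called higher, at 0.16, the opposite direction. Klf2, a flow-induced regulator of Nos3, had 0.17 (adjusted p = 0.2575) and was called under plain totals. Edn1, which encodes the vasoconstrictor endothelin 1, was higher in cisplatin mice by 0.62 (adjusted p = 0.02374), a call lost without saline replicate 3 or without cisplatin replicate 1 or 2. Nos1, the synthase of macula densa and nerve, had 0.291 ± 0.104 CPM in combination mice and 0.107 ± 0.0607 CPM in cisplatin mice, against 1.08 ± 0.186 CPM in DCA mice and 1.16 ± 0.0134 CPM in saline mice. Of the relatives of Ehd3, Ehd1 was higher in cisplatin mice by 0.21 (adjusted p = 0.01994, lost without saline replicate 1 or cisplatin replicate 1), while Ehd2 (-0.12) and Ehd4 (-0.00) passed no test.

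**Figure D4:**
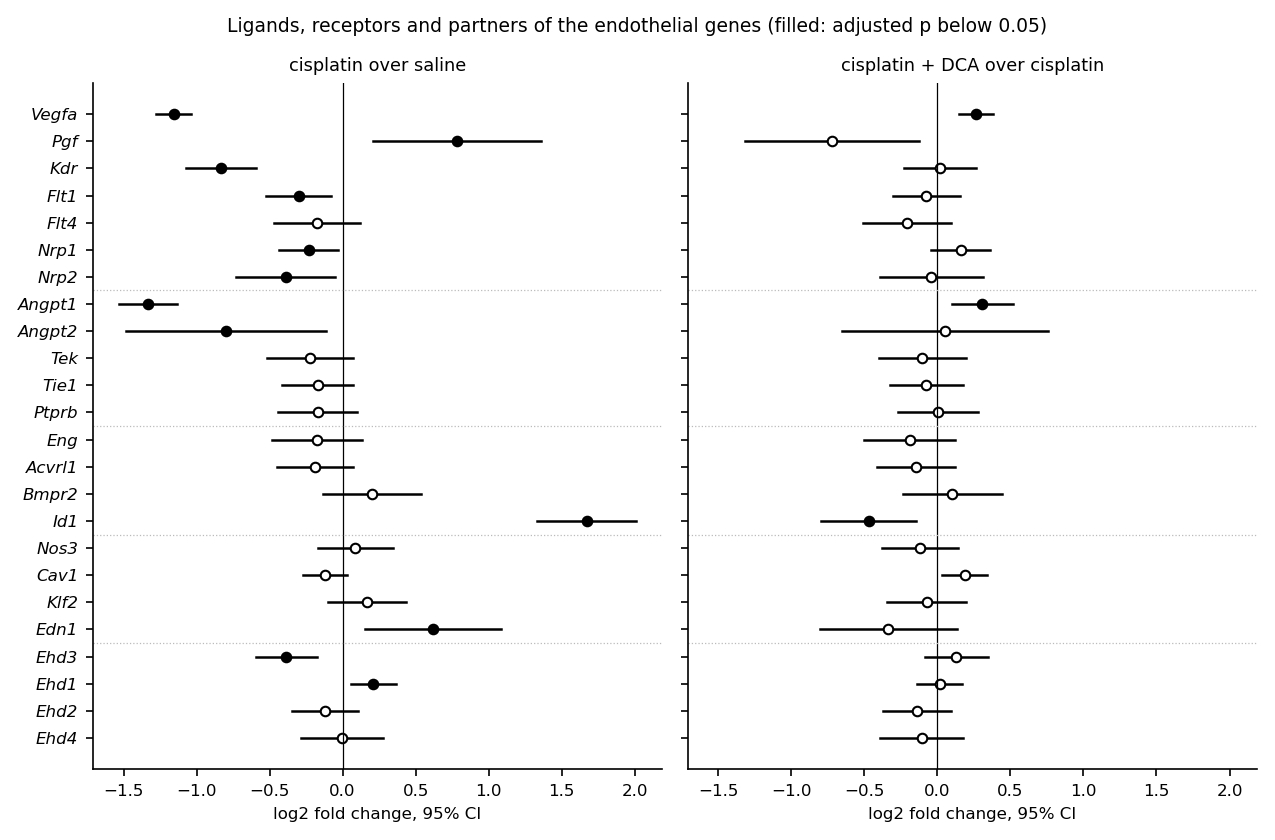
Log2 fold change with 95% confidence interval of the VEGF, angiopoietin, BMP, nitric oxide and EHD genes named in the text, in cisplatin over saline mice (left) and in combination over cisplatin mice (right), filled where the adjusted p was below 0.05. Dotted lines divide the families. Vegfa and Angpt1 lie at -1.16 and -1.33 on the left and at 0.27 and 0.31 on the right, while Kdr lies at -0.83 on the left and at 0.02 on the right. Under plain totals Nrp1, Flt4, Tek, Tie1, Ptprb, Eng, Acvrl1, Cav1, Ehd2 and Ehd4 change sign on the left.

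Of the 32 other pan-endothelial genes, 7 were lower and 2 were higher in cisplatin mice, when 30.4% of all genes were called lower and 29.7% higher. Their median log2 change was -0.19, against -0.01 over all genes tested. Clec14a, a surface lectin-like protein of endothelium, had -0.60 (adjusted p = 0.003492) and the transcription factor Fli1 had -0.56 (adjusted p = 0.01183, lost without saline replicate 1). Ramp2, a partner of the adrenomedullin receptor, was higher, at 0.49 (adjusted p = 1.951e-05), and so was Mcam, an adhesion protein, at 0.34 (adjusted p = 0.004497). Without saline replicate 1 and combination replicate 3 the counts were 5 lower and 2 higher, and under plain totals 0 lower and 4 higher. Over all genes, plain totals called 3596 lower and 9749 higher, against 6196 and 6048 with TMM. In combination over cisplatin mice, 1 of the 32 was lower (Mcam, at -0.55) and none was higher, when 31.6% of all genes were called, and 4 were lower under plain totals. In that comparison plain totals called 5134 genes lower in all, against 2753 with TMM.

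Genes listed for single vascular beds differed in how many were called. Beside them, 30.4% of all genes were called lower and 29.7% higher in cisplatin mice, and 31.6% were called in combination over cisplatin mice. Plain totals called 3596 genes lower and 9749 higher in cisplatin mice, against 6196 and 6048 with TMM. Of 10 peritubular and medullary genes, 9 were lower in cisplatin mice with a median of -0.79. The 3 that fell most were Cd36, a fatty acid carrier (-1.27), Igf1, which encodes a growth factor (-1.12), and Aplnr, the apelin receptor (-1.12). In combination over cisplatin mice 2 of the 10 were higher, Cd36 and Aqp1. The count of 9 was the same without saline replicate 1 and combination replicate 3 and was 7 under plain totals. Several of these genes are also made by tubule or stromal cells, and some are counted in other lists too. Aqp1 was also among the proximal tubule markers, Aplnr among the Notch and tip cell genes, and Gpihbp1 among the other pan-endothelial genes. Of 9 arterial genes, 4 were lower, led by Fbln5 (-1.08) and Cxcl12 (-1.03). Of 7 tested glomerular genes, 3 were lower and 1 was higher, and of 5 tested lymphatic markers, 1 was lower (2 without saline replicate 1 and combination replicate 3, none under plain totals). Of 16 Notch and tip cell genes, 5 were lower and 1 was higher, against 4 lower and 3 higher without saline replicate 1 and combination replicate 3, and 3 lower and 6 higher under plain totals. Of 8 junction partners of VE-cadherin, 2 were lower and 4 were higher. Which cells of the whole kidney these transcripts came from was not tested, so the calls are not a measure of endothelial junctions. Adhesion and coagulation genes of activated endothelium gave 4 higher and 1 lower of 12 tested, and 7 higher and none lower under plain totals. Icam1, an adhesion protein that tubule cells also make, had 30.2 ± 3.15 CPM in combination mice and 56.3 ± 6.27 CPM in cisplatin mice, against 13.2 ± 2.07 CPM in DCA mice and 13.1 ± 1.19 CPM in saline mice.

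Markers of the neighbouring cells moved as well, and their part in the values above was not tested. Over all genes, 30.4% were called lower and 29.7% higher in cisplatin over saline mice, and 31.6% were called in combination over cisplatin mice. Plain totals called 3596 genes lower and 9749 higher in cisplatin over saline mice, against 6196 and 6048 with TMM. The summed level of 10 proximal tubule markers was 14121 to 16915 CPM in combination mice, 9707 to 12134 CPM in cisplatin mice, 32884 to 34605 CPM in DCA mice and 28818 to 32814 CPM in saline mice. All 10 of these markers were lower in cisplatin than in saline mice, and all 10 were higher in combination than in cisplatin mice (9 under plain totals). Podocyte markers, 8 genes of the cells that face the glomerular endothelium and secrete VEGF-A, summed to 201 to 222 CPM in combination mice, 204 to 233 CPM in cisplatin mice, 233 to 257 CPM in DCA mice and 252 to 282 CPM in saline mice, and 5 of the 8 were lower and 1 was higher in cisplatin mice. Without saline replicate 1 and combination replicate 3, 3 of the podocyte markers were lower, and under plain totals none was lower. Of 10 pericyte and smooth muscle markers, 2 were lower in cisplatin mice (1 lower and 2 higher under plain totals), and their sum was 216 to 244 CPM there and 296 to 315 CPM in saline mice. Of 9 tested leukocyte and platelet markers, 3 were lower and 2 were higher in cisplatin mice, with 1 lower and 2 higher when those libraries were left out and 1 lower and 3 higher under plain totals. None of the markers in these lists was at 0 in every library.

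Gene length also went with the change after cisplatin over all genes tested. Genes spanning up to 20 kb had a median log2 change of 0.10 in cisplatin over saline mice, those of 20 to 50 kb had -0.01, those of 50 to 100 kb had -0.14 and those of 100 to 200 kb had -0.42. Flt1, at 164.4 kb, and Tek, at 135.7 kb, fell less than the median of their span class, with -0.30 and -0.22. Pecam1 (96.4 kb) and Emcn (91.1 kb) were below theirs. Kdr, at 45.6 kb, had -0.83 in a class with a median of -0.01. In the same class Cdh5 (42.9 kb) had -0.25, Eng (36.1 kb) had -0.18 and Ehd3 (28.0 kb) had -0.38, so Ehd3 fell more than the longer Flt1 and Tek. Plvap (14.0 kb) and Nos3 (19.7 kb), the shortest of the 10, were the 2 with the values nearest to or above 0, at -0.16 and 0.09. Both were under their class median of 0.10.

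Likeness over the 12 libraries was measured as the root mean square difference in log2 CPM, each gene centred on its mean, among 16462 genes with a mean of at least 1 CPM. Closest to Kdr were Pacs1 (0.0836), the gene ENSMUSG00000019769 (0.0837), which has no symbol here, and Heph (0.0890). Closest to Emcn were Tgfbr3 (0.0655), Sorl1 (0.0793) and Sema6d (0.0808). Closest to Nos3 were Fxyd5 (0.0567), Bnip2 (0.0716) and Gm22637 (0.0743), and closest to Plvap were Tmem30b (0.0845), Boc (0.0854) and Slco2b1 (0.0875). None of these 12 genes was in any of the endothelial lists. Pacs1 had log2 changes of -0.92 in cisplatin over saline mice and 0.10 in combination over cisplatin mice, beside -0.83 and 0.02 for Kdr.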

How the data were processed

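Whole-kidney RNA of 12 mice was sequenced, with 1 library per mouse labelled as a biological replicate. Per the labels' protocols, RNA was column-purified, DNase-treated and made into libraries with an Illumina TruSeq RNA kit. Per the submitters' processing notes, the build was mm10 and the tools included HTSeq, TopHat, Trimmomatic, DESeq, bedtools and Cufflinks. Their roles, versions and strand mode are not given in the sources used here. Raw read counts per Ensembl gene, which carry every result, were deposited by the authors. They also deposited a normalised signal table, each column of which, multiplied by 1 size factor, gave back the counts within 0.00058, used for an alternative only. Identifiers were matched to GENCODE M21 (GRCm38), 27955 of 28991 with a symbol.

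Counts were tested with edgeR 4.0.16 (TMM scaling, filterByExpr, quasi-likelihood F test, 4 group means over all 12 libraries, 8 residual degrees of freedom), with Benjamini-Hochberg adjustment over 20370 genes and a threshold of 0.05, in R 4.3.3. Standard errors came from the F statistic, and 95% intervals from its degrees of freedom. The effect of cisplatin with DCA was tested against that without it as a difference of differences. Alternatives used DESeq2 1.42.0, limma 3.58.1 on log2(value + 1), other scalings, no filter, a replicate block and left-out libraries. On simulated counts for cisplatin over saline with 20370 genes, 63% of 100 changes of 0.5 and 92% of 100 changes of 1 on the log2 scale were recovered. Of the calls, 4.91% were false. No other gene was changed there, whereas the data gave 6048 higher and 6196 lower calls, so these rates need not hold for the data. Changes as small as those of Tek or Eng were not simulated, so how often such changes are missed was not measured. Replicate libraries differed beyond sampling noise, and their common biological coefficient of variation was 0.0917.

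The members and all 17 other gene lists were chosen with earlier results of these data known. From the lists, genes were named by rule: up to 3 called rises and 3 called falls in cisplatin over saline mice, plus partners of the members, not all of which are printed. 1 item that met the rule is not reported here. The scaling to 32 endothelial genes, the plain library totals, the removal of saline replicate 1 with combination replicate 3, and the within-library ratios were chosen after seeing the data. Promoter sequence was read from the RefSeq table of GRCm38.p6.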

Additional observations from a re-analysis of the deposited data

Results flagged for a closer look

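None of the 10 endothelial genes was picked out by the test of whether the effect of cisplatin differed with DCA. Among the genes named from the other lists, 15 reported here passed that test (edgeR quasi-likelihood test, adjusted p below 0.05), which called 18.6% of all genes. The named genes had been chosen as the largest called rises and falls in cisplatin over saline mice or as partners of the members. That comparison is part of the difference tested, so this choice favours differences opposite in sign to the change in cisplatin over saline mice. How many named genes were tested is not given here, so the 15 cannot be set against the share of all genes. Each value below is the log2 effect of cisplatin in DCA-treated mice minus that in mice without DCA. A smaller rise with DCA was measured for Gch1 (-1.16), Icam1 (-0.92), Klf4 (-0.72), Arg2 (-0.41) and Ctnnb1 (-0.21). Mcam, which had -0.09 with DCA and 0.34 without it, differed by -0.44. A smaller fall with DCA was measured for Vegfa (0.42), Cgnl1 (0.49), Mapt (0.72), Ddah1 (0.77), Apln (0.90), Slc34a1 (0.96), Slc5a12 (1.39), Nos1 (1.48) and Cubn (1.55). Slc34a1, Slc5a12 and Cubn are proximal tubule markers, a list in which 9 of 10 genes were called higher in this test. The ligand Vegfa fell by 0.74 with DCA and by 1.16 without it, on the log2 scale. Its receptor Kdr fell by 0.77 with DCA and by 0.83 without it, a difference of 0.06 (95% CI -0.28 to 0.40). Whether Vegfa and Kdr differed from each other in this was not tested. The call was lost for Nos1 in 14 of 20 alternatives, for Arg2 in 9, for Ctnnb1 in 8, for Klf4 in 6, for Mcam in 6 and for Apln in 4. Groups of 3 mice were too small for a test of single mice that stand apart.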

How the results depend on the processing

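The fall of Kdr in cisplatin over saline mice was called under all 15 alternatives tried. Of 950 values of the 10 genes under alternatives, 880 stayed on the same side of the threshold with any change of sign being a move of at most 1 SE, 23 lost and 26 gained a call, and 21 changed sign by more than 1 SE. There were 84 sign changes in all, each between values that passed no test. The cause of these shifts was not tested. Under plain library totals, 2 of the 10 were called in cisplatin over saline mice, 1 in combination over DCA mice and 1 in combination over saline mice. On that scale the log2 change in cisplatin over saline mice was 0.020 for Cdh5, 0.049 for Tek, 0.12 for Plvap, 0.10 for Eng, 0.086 for Acvrl1, 0.16 for Cav1, 0.15 for Ehd2, 0.27 for Ehd4, 0.10 for Flt4, 0.039 for Nrp1, 0.10 for Ptprb, 0.0088 for Rgs5 and 0.10 for Tie1. It was -0.11 for Kdr, -0.11 for Ehd1, -0.091 for Rgs5 and -0.12 for Wt1 in combination over cisplatin mice, 0.026 for Ehd3 and 0.12 for Nos3 in combination over DCA mice, and 0.11 for Nos3 in combination over saline mice. Over all genes, plain totals gave 9749 higher and 3596 lower calls in cisplatin over saline mice (6048 and 6196 with TMM), 2317 and 5134 in combination over cisplatin mice (3688 and 2753) and 7482 and 2508 in combination over saline mice (4203 and 3986). Leaving out 1 library, or saline replicate 1 with combination replicate 3, gave -0.24 to 0.019 for Plvap in cisplatin over saline mice. In DCA over saline mice it gave -0.18 to 0.032 for Pecam1, -0.13 to 0.11 for Kdr, -0.23 to 0.040 for Tek, -0.23 to 0.046 for Emcn and -0.24 to 0.0097 for Eng. In combination over saline mice it gave -0.35 to 0.078 for Plvap and -0.11 to 0.14 for Nos3. In combination over cisplatin mice it gave -0.28 to 0.33 for Angpt2, -0.16 to 0.26 for Cxcl12, -0.055 to 0.31 for Gpihbp1 and -0.065 to 0.42 for Reln. The called members then numbered 4 to 5 in cisplatin over saline mice, 2 to 6 in combination over DCA mice and 2 to 7 in combination over saline mice. DESeq2 called 8 in combination over saline mice. Over all genes, 63 were called in DCA over saline mice, against 356 with DESeq2, 119 with no filter, 15 with only the compared groups, 134 with plain totals and 16 to 126 with libraries left out. Correlations of same-numbered deviations between groups ran from -0.095 to 0.15. Differently numbered mice were not compared, so whether replicate numbers mark anything shared was not tested. A replicate block called 8 members in combination over saline mice, against 5 without it, and 117 genes in DCA over saline mice.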
